A study of Drosophila melanogaster with 4 samples.

Results

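Aminoacyl-tRNA synthetases join each amino acid to its tRNA, the step that sets which amino acid a codon brings into a protein. Animal cells run this step in the cytoplasm and again inside mitochondria, and most amino acids have a nuclear gene for each compartment. Several cytoplasmic synthetases sit together in a multi-synthetase complex, and the enzymes fall into classes I and II by the fold of the catalytic domain. The genes described here are the protein-coding genes of the Drosophila melanogaster annotation whose symbol is an amino acid name followed by RS, with -m added for a mitochondrial enzyme. The rule found 33 genes of 13945 protein-coding genes, of which 18 were cytoplasmic and 15 mitochondrial. The compartment was read from the symbol alone, and there was no -m gene for glutamine, glycine, histidine, lysine or threonine. Whether a gene without -m also serves mitochondria was not checked. The symbol pattern misses the genes of the cytoplasmic phenylalanine enzyme, alpha-PheRS and beta-PheRS, which are given among the partner genes.

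The measurement was chromatin immunoprecipitation with sequencing in whole embryos, 0 to 24 h old and of pooled sex. The embryos came from a transgenic line that stably expresses CG8924, a protein assayed as a transcription factor, with GFP at its C terminus, and the precipitation used an antibody against GFP. All 4 biological replicates belong to this single group, and the labels give no second condition, so nothing was compared between conditions. Chromatin of all embryonic cells was pooled, and the tagged protein comes from a transgene, whose level relative to the endogenous protein was not measured in these files.

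A peak list gives a summit, the base of highest signal, and the authors' signal value for each peak. Ranks below run from 1, the peak of highest signal in its list. The thresholded list holds 7842 peaks, and the lists of single replicates and of pooled reads hold 30000 each. The deposited notes name replicates 2, 3 and 4 as the source of the pooled and thresholded lists. Whether reads of replicate 1 are also in them was not tested. A gene was counted as having a promoter peak where a transcription start site (TSS) of it had a summit within 500 bp. Read depth is unknown from peak lists, so a missing peak shows only that none was listed. Replicate lists were compared at equal length, as the 7842 peaks of highest signal in each. A signal value is the authors' own and is comparable only within its list.

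Cytoplasmic synthetase genes had promoter peaks more often than mitochondrial ones. In the thresholded list, 13 of 18 cytoplasmic genes (72.2%) and 4 of 15 mitochondrial genes (26.7%) had one, and together these made 17 of 33 synthetase genes (51.5%), beside 31.4% of all protein-coding genes (4383 of 13945). The equally long lists of replicates 1 to 4 gave 13, 12, 10 and 14 cytoplasmic genes, or 68.1% ± 9.49 (SD, n = 4 replicates). The same lists gave 3, 5, 3 and 2 mitochondrial genes, or 21.7% ± 8.39 (SD, n = 4). All protein-coding genes stood at 31.0, 30.5, 31.4 and 31.2% in these lists. Each replicate thus had a cytoplasmic share above both the mitochondrial share and the share of all coding genes. The mitochondrial share lay below that of all coding genes in replicates 1, 3 and 4, and above it in replicate 2, at 33.3%. Genes of a family are not replicates of a condition, so these counts carry no test.

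**Figure D1:**
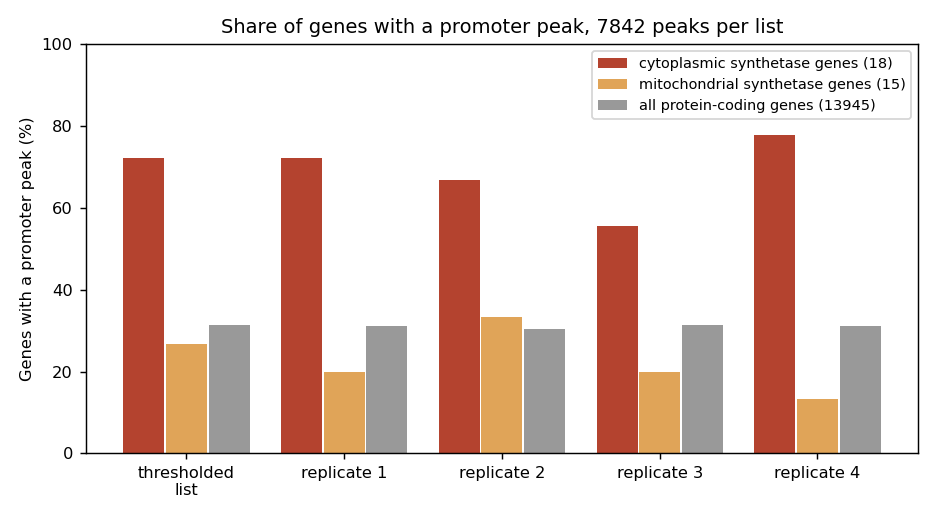
Percent of genes with a promoter peak (y axis, from 0) in the thresholded list and in the equally long list of each replicate (x axis), for cytoplasmic synthetase genes, mitochondrial synthetase genes and all protein-coding genes. Cytoplasmic bars stand between 55.6 and 77.8%, mitochondrial bars between 13.3 and 33.3%, and the bars of all coding genes between 30.5 and 31.4%.

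Taking all 30000 peaks of each replicate kept the contrast. These lists placed a summit at 16, 18, 15 and 18 of the 18 cytoplasmic genes in replicates 1 to 4, and at 7, 6, 6 and 6 of the 15 mitochondrial genes. All protein-coding genes stood at 52.1, 52.4, 50.6 and 51.3% in the same lists. The full pooled list had 16 of 18 cytoplasmic and 6 of 15 mitochondrial genes, beside 49.8% of all protein-coding genes. The mitochondrial share, 41.7% ± 3.33 (SD, n = 4), was thus below that of all coding genes in every replicate.

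The sequences under the peaks are shown before the single genes, since most of the summits lie in sequence rich in A and T, a feature that the symbol rule did not use. Each is the reference sequence from 50 bases before to 50 bases after the summit, from the RefSeq Release 6 (dm6) genome, 5′ to 3′ on the strand of the synthetase gene. Capitals mark unbroken runs of at least 6 A or T bases. The windows are those of cytoplasmic genes of high rank (IleRS at chr3L:22288438-22288538, plus strand, GluProRS at chr3R:23958472-23958572, minus strand, and ThrRS at chr2L:12103504-12103604, plus strand), of the most A+T-rich summit (GlyRS at chr3L:15094872-15094972, plus strand), of a less A+T-rich one (ArgRS at chrX:15844253-15844353, minus strand) and of the highest-ranked mitochondrial gene (ProRS-m at chr3L:2651884-2651984, minus strand).
IleRS: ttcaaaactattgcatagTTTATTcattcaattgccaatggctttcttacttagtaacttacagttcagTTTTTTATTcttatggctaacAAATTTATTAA
GluProRS: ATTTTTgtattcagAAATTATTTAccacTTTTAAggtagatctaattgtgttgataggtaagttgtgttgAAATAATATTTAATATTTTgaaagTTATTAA
ThrRS: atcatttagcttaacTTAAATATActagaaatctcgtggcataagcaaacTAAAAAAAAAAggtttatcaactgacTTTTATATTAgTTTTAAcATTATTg
GlyRS: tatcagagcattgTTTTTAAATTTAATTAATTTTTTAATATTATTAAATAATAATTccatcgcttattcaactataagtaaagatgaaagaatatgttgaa
ArgRS: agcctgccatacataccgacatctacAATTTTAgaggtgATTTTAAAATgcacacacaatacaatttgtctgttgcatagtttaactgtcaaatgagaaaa
ProRS-m: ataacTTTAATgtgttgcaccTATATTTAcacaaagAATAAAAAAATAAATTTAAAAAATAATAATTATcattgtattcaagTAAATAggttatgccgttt

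The runs cover 26 bases of the IleRS window, 48 of GluProRS, 42 of ThrRS, 43 of GlyRS, 17 of ArgRS and 53 of ProRS-m. A+T made up 74.3% of the IleRS window, 79.2% at GluProRS, 76.2% at ThrRS, 82.2% at GlyRS, 66.3% at ArgRS and 80.2% at ProRS-m. Over the 17 synthetase genes with a peak the median was 75.2%, against 67.3% over all 7842 thresholded summits and 64.4% over the 3926 of them at protein-coding promoters. The synthetase windows ran between 44.6% at HisRS and 82.2% at GlyRS. Apart from HisRS, the mitochondrial genes ArgRS-m at 53.5% and PheRS-m at 57.4% were the low ones, both below the median of promoter summits.

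A+T-rich sequence also lay upstream of some mitochondrial genes that had no peak. The next windows are 50 bases long and end just over 100 bp before the most upstream TSS, of 3 mitochondrial genes with no summit in the thresholded or pooled list. They are IleRS-m at chr3L:16100130-16100179 (plus strand), MetRS-m at chr3R:14260092-14260141 (minus strand) and GluRS-m at chr3L:16417278-16417327 (minus strand), with the same use of capitals.
IleRS-m: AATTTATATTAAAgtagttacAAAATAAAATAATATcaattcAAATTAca
MetRS-m: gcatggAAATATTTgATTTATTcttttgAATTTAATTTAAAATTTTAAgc
GluRS-m: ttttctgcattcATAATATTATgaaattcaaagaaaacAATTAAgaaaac

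A+T made up 88.0% of the IleRS-m window, 82.0% at MetRS-m and 80.0% at GluRS-m. In this 50-base bin the mean was 72.6% ± 10.3 for the 13 cytoplasmic genes with a peak and 74.9% ± 11.2 for the 11 mitochondrial genes without one, against 64.0% ± 12.8 for all 13945 protein-coding genes (SD over genes). The mean in this bin was 62.8% ± 16.6 for the 5 cytoplasmic genes without a peak. It was 70.5% ± 12.8 for the 4 mitochondrial genes with a peak. Genes with a peak thus had the higher mean among cytoplasmic genes and the lower mean among mitochondrial genes. In each compartment the SD ranges of genes with and without a peak overlapped. In a fixed window from 250 to 51 bp upstream, the median was 69.5% for the 13 cytoplasmic genes with a peak and 62.5% for the 5 without. It was 69.5% for the 4 mitochondrial genes with a peak and 64.0% for the 11 without. Among these 11 genes it ran from 52.5% at TyrRS-m to 79.0% at MetRS-m. All protein-coding genes with a promoter peak had a median of 67.0%, against 63.0% for those without.

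**Figure D2:**
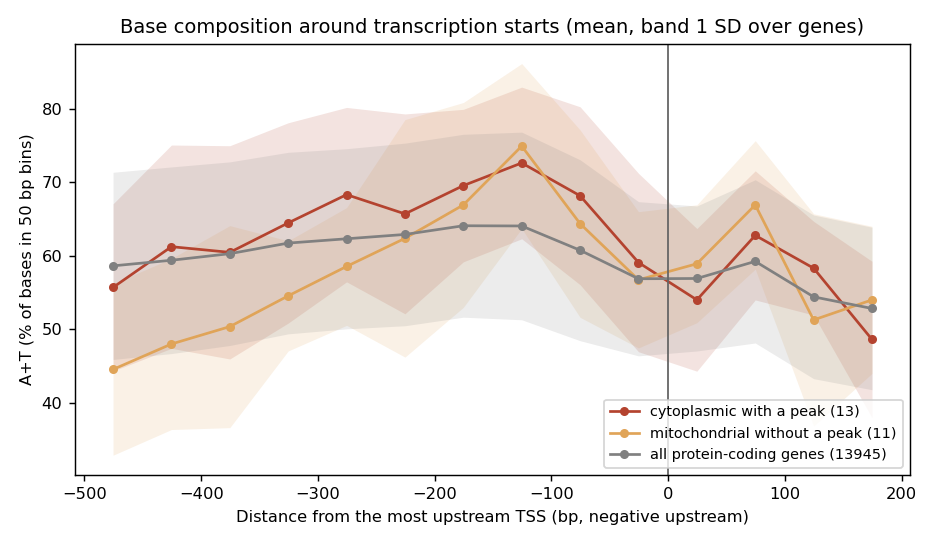
A+T content (% of bases in 50 bp bins, y axis) against distance from the most upstream TSS (bp, negative upstream, x axis), as mean (line) and 1 SD over genes (band) for cytoplasmic synthetase genes with a peak (13), mitochondrial ones without a peak (11) and all protein-coding genes (13945). Both synthetase lines are highest in the bin that ends just over 100 bp upstream, at 72.6 and 74.9%, and the bands overlap.

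Of 10 known motifs searched on both strands, the TATA box letters were the most frequent in the 17 synthetase windows. The TATA box letters TATAAA were in 5 of them (AsnRS, SerRS, ThrRS, ValRS and CysRS-m), beside 22.8% of all thresholded summits and 21.1% of those at protein-coding promoters. The letters overlap with the A or T runs by construction. The DNA replication-related element TATCGATA, bound by the factor Dref, was in 1 window, that of PheRS-m. It was in 2.03% of all thresholded summits and 3.8% of those at protein-coding promoters. Its core CGATA was in the same window alone, beside 15.6 and 21.5%. No synthetase window held Ohler motif 1 (GGTCACACT), the E-box CACGTG, the GAGA factor letters GAGAG, the GATA factor letters AGATAA, the amino acid response element (TGATGNAA), the Zelda letters CAGGTAG or the ewg letters GCGCATGC. Among all thresholded summits these were in 1.24, 0.816, 11.3, 7.98, 1.53, 0.472 and 0.14%, in the same order. Among those at protein-coding promoters they were in 2.34, 1.02, 11.4, 6.72, 1.35, 0.433 and 0.178%. A lack of matches in 17 windows says only that these letters were not in them.

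Of the 8 cytoplasmic genes of the multi-synthetase complex, 6 had a thresholded promoter peak. The highest was at IleRS, the isoleucine enzyme, at rank 423 with a summit at -177 bp from the TSS (negative is upstream) and a signal of 1933. Its ranks in replicates 1 to 4 were 425, 522, 359 and 585, or 473 ± 100.4 (SD, n = 4), the highest mean position of any synthetase gene. The summits of the 4 replicates fell at -193, -177, -182 and -172 bp. This peak spans chr3L:22288169-22288682 of dm6. It lies mostly upstream of the IleRS gene at 22288665-22292810 on the plus strand and reaches just past the gene's start.

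GluProRS, which in animals fuses the glutamate and proline enzymes in a single protein, had rank 946 in the thresholded list and ranks 814, 1013, 1118 and 1201 in replicates 1 to 4 (mean 1037 ± 167). Its summit lay at -131 bp, inside chr3R:23958309-23958725. AspRS, the aspartate enzyme, had rank 1037 and replicate ranks 856, 2174, 544 and 2006 (1395 ± 815), so replicates 1 and 3 placed it higher than replicates 2 and 4. AspRS has 3 annotated TSSs, and this summit lies at -202 bp from an internal one, with a further thresholded summit of rank 5068 at 5 bp from a TSS. ArgRS, the arginine enzyme, had rank 3094 and replicate ranks 2673, 3566, 2564 and 6127.

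MetRS, the methionine enzyme, had rank 2767 and ranks 2981, 2833 and 2745 in replicates 1, 2 and 4. The full list of replicate 3 had no summit within 500 bp of its TSS. MetRS is also the only synthetase gene whose thresholded peak had no overlapping peak in a full replicate list. In all, 62 of the 7842 thresholded peaks (0.791%) had no overlapping peak in the full list of replicate 3, against 46, 42 and 68 in replicates 1, 2 and 4. LeuRS, the leucine enzyme, came just inside the threshold at rank 7009, with replicate ranks 5916, 11196, 6157 and 6720. GlnRS and LysRS, the glutamine and lysine enzymes, had no thresholded peak. Their pooled ranks were 9783 and 11398.

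Among the 10 cytoplasmic genes outside the complex, 7 had a thresholded peak. SerRS, the serine enzyme, was highest, at rank 810 with replicate ranks 648, 884, 1004 and 908 (861 ± 151). Its summit lay at 34 bp, the only one of the 17 downstream of the TSS, and those of the replicates at 34, -2, 37 and 22 bp. ThrRS, the threonine enzyme, had rank 1087 and replicate ranks 1124, 1163, 1262 and 1515 (1266 ± 176), with summits within a few bases of each other at -197, -190, -195 and -184 bp.

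ValRS, the valine enzyme, had rank 1321 and replicate ranks 1598, 1886, 913 and 2067 (1616 ± 507). Its summit was the farthest upstream, at -367 bp, and the replicates placed it at -327, -330, -366 and -354 bp. A further thresholded summit of rank 2686 lay 167 bp from the TSS. AsnRS, the asparagine enzyme, had rank 2802 and replicate ranks 2153, 3745, 2488 and 4480.

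GlyRS, AlaRS and HisRS, the glycine, alanine and histidine enzymes, had weaker peaks at ranks 5553, 5660 and 6337. Their replicate ranks spread widely. GlyRS had ranks 3681, 14968, 3031 and 8735 in replicates 1 to 4. AlaRS had ranks 5053, 4640, 11796 and 4475. HisRS had ranks 12622, 5632, 9641 and 3449. Each of these genes thus fell outside the 7842 highest-signal peaks of at least 1 replicate.

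TyrRS, the tyrosine enzyme, had no thresholded peak and a pooled rank of 9518, the nearest below the threshold among all synthetase genes. Replicate 1 alone placed it within its 7842 highest-signal peaks, at rank 6610. TrpRS and CysRS, the tryptophan and cysteine enzymes, had no summit in the pooled list. TrpRS had ranks 13310, 12792 and 13344 in replicates 2, 3 and 4 and none in replicate 1. CysRS had ranks 22362 and 14420 in replicates 2 and 4 and none in replicates 1 and 3.

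Complex genes had peaks at a somewhat higher share than the other cytoplasmic genes. The equally long replicate lists gave 6, 6, 5 and 8 of the 8 complex genes, or 78.1% ± 15.7, and 7, 6, 5 and 6 of the 10 others, or 60.0% ± 8.16 (SD, n = 4). The share of complex genes was higher in each of these 4 lists, and all protein-coding genes stood between 30.5 and 31.4% there. The full lists did not keep this order, since replicate 3 had 6 of 8 complex genes and 9 of 10 others. Replicates 2 and 4 had all genes of both groups, and replicate 1 had 8 of 8 and 8 of 10. All protein-coding genes stood between 50.6 and 52.4% in the full lists. By catalytic class, 7 of 8 class II and 5 of 9 class I cytoplasmic genes had a thresholded peak, with the bifunctional GluProRS counted in neither. The equally long lists of replicates 1 to 4 had 6, 6, 5 and 7 of 8 class II genes. They had 6, 5, 4 and 6 of 9 class I genes, so the class II share was higher in each. Each group holds few genes, and neither difference was tested.

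**Figure D3:**
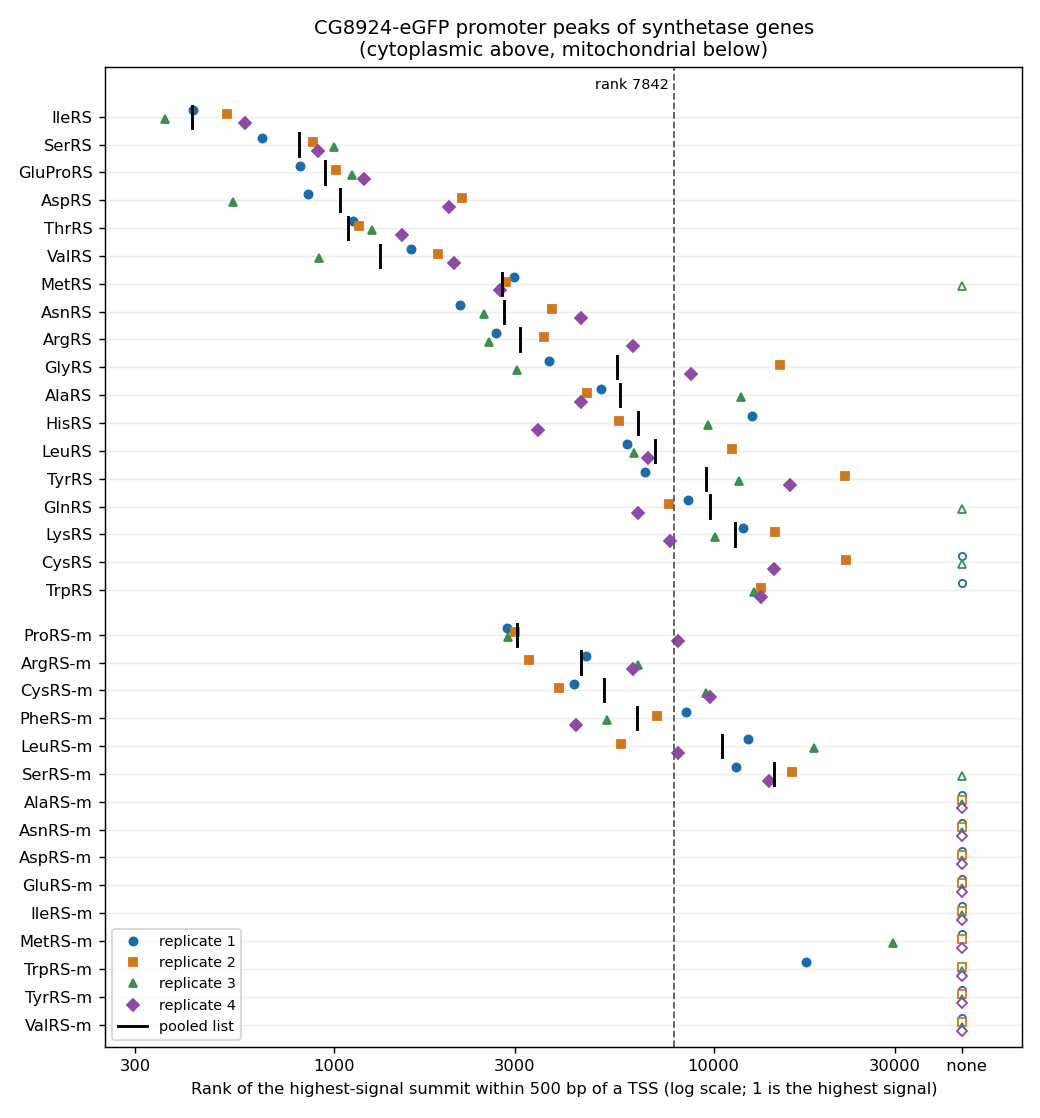
Rank of the highest-signal summit within 500 bp of a TSS (x axis, log scale, 1 is the highest signal) for each of the 33 synthetase genes, in replicates 1 to 4 (filled symbols) and the pooled list (bar); open symbols at none mark replicates with no such summit. Filled symbols of IleRS, SerRS, GluProRS and ThrRS lie close together, most mitochondrial genes lie at none, and the dashed line marks rank 7842.

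Mitochondrial synthetases charge tRNAs encoded by the mitochondrial genome but are themselves made from nuclear genes. The highest of the 4 with a peak was ProRS-m, the proline enzyme, at rank 3042 with a summit at -84 bp. Its replicate ranks were 2858, 3007, 2878 and 8072, so replicates 1 to 3 lay close together and replicate 4 far below. ArgRS-m had rank 4485, a summit at -27 bp and replicate ranks 4599, 3265, 6339 and 6144 (5087 ± 1443). It was the only mitochondrial gene within the 7842 highest-signal peaks of all 4 replicates.

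CysRS-m had rank 5130, a summit at -104 bp and replicate ranks 4299, 3910, 9566 and 9758, so replicates 3 and 4 placed it outside their 7842 highest-signal peaks. PheRS-m, which acts as a single chain where the cytoplasmic enzyme has alpha and beta subunits, had rank 6298, a summit at -7 bp and replicate ranks 8440, 7095, 5240 and 4341. All 4 mitochondrial genes thus ranked below the 8 highest cytoplasmic genes in the thresholded list. Among the 3921 highest-signal thresholded peaks, 9 of 18 cytoplasmic genes and 1 of 15 mitochondrial genes had a promoter peak, beside 18.7% of all protein-coding genes.

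The other 11 mitochondrial genes had no thresholded promoter peak. LeuRS-m had pooled rank 10546 and replicate ranks 12342, 5686, 18360 and 8038, while a thresholded summit of rank 258 lay 921 bp from its TSS, outside the window. SerRS-m had pooled rank 14423 and ranks 11440, 16121 and 13998 in replicates 1, 2 and 4. TrpRS-m and MetRS-m had a summit in a single replicate, at rank 17465 in replicate 1 and rank 29578 in replicate 3. The remaining 7 (AlaRS-m, AsnRS-m, AspRS-m, GluRS-m, IleRS-m, TyrRS-m and ValRS-m) had no summit within 500 bp in the pooled list or in any of the 4 replicate lists. GluRS-m is the enzyme that in human mitochondria also charges the glutamine tRNA with glutamate, which an amidotransferase then converts.

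Within an amino acid, the cytoplasmic gene was more often the one with a peak. The pairs hold genes already counted by compartment, so this is no separate result. Of all protein-coding genes, 31.4% had a thresholded promoter peak. Genes were paired by the same amino acid name in the symbol. This gave 12 pairs and left GluProRS unpaired with ProRS-m and GluRS-m. Peaks were at the cytoplasmic gene alone for 8 of them (Ala, Asn, Asp, Ile, Leu, Met, Ser and Val) and at the mitochondrial gene alone for 1 (Cys). Among these 12, arginine was the only amino acid with a peak at both genes, and for 2 (Trp and Tyr) neither gene had one. Outside the pairs, GluProRS (rank 946) and ProRS-m (rank 3042) both had a peak, and GluRS-m had none. For phenylalanine, alpha-PheRS (rank 4111) and PheRS-m (rank 6298) had a peak, and beta-PheRS had none in the thresholded list. For isoleucine the contrast was widest, with rank 423 at IleRS and no summit in any list at IleRS-m.

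The deposited notes do not name replicate 1 as a source of the pooled lists, but it cannot be taken as a check from outside them. At TyrRS the pooled rank of 9518 was above the ranks in replicates 2, 3 and 4 (22187, 11670 and 15860). It was below that in replicate 1 (6610). Of the 17 synthetase genes with a thresholded peak, 15 (88.2%) also had one in the equally long list of replicate 1, beside 88.6% of all protein-coding genes with a thresholded peak. In replicates 2, 3 and 4, which the notes name as the source, it was 15, 13 and 14 of the 17 (88.2, 76.5 and 82.4%). The coding genes with a peak stood at 87.7, 89.9 and 88.6%. The synthetase share was thus lower in replicates 3 and 4. The equally long lists of all 4 replicates held 9 of the 17 (52.9%), a smaller share than the 69.7% of all protein-coding genes with a thresholded peak. Counted over all genes, a thresholded promoter peak overlapped in every replicate was at 8 of 18 cytoplasmic and 1 of 15 mitochondrial genes, beside 22.2% of all protein-coding genes.

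Summits lay mostly just upstream of the TSS. Of the 17, 16 were upstream and 9 lay between 100 and 200 bp upstream, with a median of -131 bp. All 4383 protein-coding genes with a peak had a median of -118 bp and 79.2% upstream. Over the 4 replicates the summit position was -181 ± 8.98 bp at IleRS, -192 ± 5.80 bp at ThrRS and -344 ± 18.9 bp at ValRS, against -137 ± 90.0 bp at GlyRS (SD, n = 4). GlyRS carries 2 thresholded summits, at -220 bp and at a distance of 16 bp from the TSS, and replicates 2 and 4 had their strongest summit at -74 and -55 bp.

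**Figure D4:**
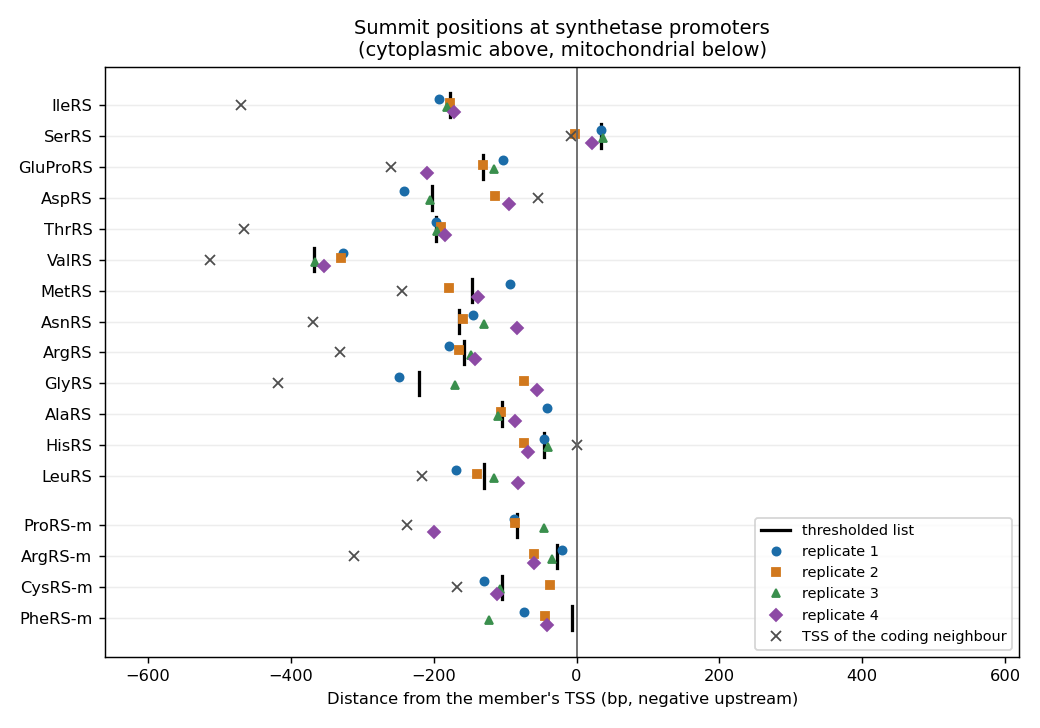
Distance of the strongest promoter summit from the nearest TSS of the synthetase gene (bp, negative upstream, x axis) in the thresholded list (bar) and replicates 1 to 4 (symbols), for the 17 genes with a peak; crosses mark the TSS of the nearest protein-coding neighbour. Summits run from -367 bp at ValRS to 34 bp at SerRS, and at most genes they lie between the TSSs of a divergent pair.

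Most of these peaks cannot be assigned to the synthetase gene alone. For 15 of the 17, the summit was also within 500 bp of a TSS of another protein-coding gene (88.2%), against 55.4% of all protein-coding genes with a peak. In 14 of these 15 the nearest such neighbour lies on the opposite strand, as in a divergent pair. The matching share over all protein-coding genes with a peak was not counted. The summit was closer to the synthetase TSS in 7 cases, closer to the neighbour's in 7 and equally far in 1. That 1 is HisRS, whose TSS coincides with an annotated TSS of Bx (Beadex, an LMO family regulator) on the same strand.

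The strongest peaks were shared in this way too. At IleRS the summit lay 293 bp from the TSS of Hem, which encodes a subunit of the WAVE actin regulator. At GluProRS it lay 129 bp from that of AP-1sigma, a clathrin adaptor subunit, and 131 bp from the GluProRS TSS. At ValRS it lay 146 bp from that of Kdm4B, a histone demethylase, and so was nearer to it. The neighbour at SerRS was CG17260, with TSSs 8 bp apart. AspRS had Nmda1, ThrRS Patsas, AsnRS DCTN6-p27, GlyRS Plp and sstn, ArgRS CG8578, MetRS CG15084 and LeuRS CG17593. Among mitochondrial genes, CysRS-m had O-fut1, which encodes the O-fucosyltransferase of Notch, ProRS-m had Snup and CG42304, and ArgRS-m had CG17816. AlaRS and PheRS-m were the genes with no coding neighbour at the summit.

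Gene spacing differed between the compartments as the peaks did. Another protein-coding TSS lay within 500 bp of an own TSS for 15 of 18 cytoplasmic genes (83.3%) and 7 of 15 mitochondrial genes (46.7%), against 30.9% of all protein-coding genes. Among genes with such a neighbour, 11 of 15 cytoplasmic (73.3%) and 3 of 7 mitochondrial genes (42.9%) had a peak, against 56.2% of all protein-coding genes. Among genes without it, 2 of 3 cytoplasmic (66.7%) and 1 of 8 mitochondrial genes (12.5%) had one, against 20.4% of all protein-coding genes. The share with a peak was higher at genes with a close neighbour, though by little at the cytoplasmic genes, of which only 3 lacked one. The part of spacing in the difference between the compartments was not tested.

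The partners of the synthetases had peaks about as often as coding genes at large. Of 27 listed partner genes, 9 had a thresholded promoter peak, beside 31.4% of all protein-coding genes. None of the 3 scaffolds of the multi-synthetase complex (AIMP1, AIMP2 and AIMP3) had one, and AIMP1 was in none of the lists. The cytoplasmic phenylalanine enzyme was split. Its alpha-PheRS gene had rank 4111 with replicate ranks 4273, 3939, 4573 and 6049, and beta-PheRS had ranks 4560 and 3231 in replicates 1 and 2 and none in replicates 3 and 4 or the pooled list.

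Of the 3 genes of the mitochondrial amidotransferase, which completes glutaminyl-tRNA there, GatA had rank 2204 and GatC rank 4332, and GatB was in none of the lists. Slimp, an insect relative of the mitochondrial serine enzyme, had pooled rank 8066, outside the threshold. Elongation factors carry the charged tRNA to the ribosome. eEF1gamma had rank 943 with replicate ranks 1194, 974, 966 and 600, and eEF1alpha1 had rank 2142 with replicate ranks 3891, 1751, 2454 and 1281. The other 3 cytoplasmic and all 3 mitochondrial elongation factor genes had no thresholded peak.

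Of 4 genes of amino acid response and growth, crc, the fly ATF4 that induces synthetase genes when amino acids run short, had rank 6132. Thor, the inhibitor of translation initiation known as 4E-BP, had rank 2023 with replicate ranks 4919, 1545, 1042 and 2179. Gcn2 and Myc had no thresholded peak, with pooled ranks of 9452 and 9178.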

How the data were processed

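The authors deposited peak lists in narrowPeak form on dm6 per the labels: a list for each of 4 biological replicates, a pooled list and a thresholded list. Fragments were 200 to 800 bp long per the labels. The aligner was not given in the sources used here, nor were the peak caller and the read depths. All lists were called against the same control file, per the deposited notes. The signal value in the deposited lists has its own scale in each list, and served only for ranks within it. The authors' −log10 q-value of each peak, which is 4.25 for every thresholded peak, was used for no result. The thresholded list equals the top 7842 of the pooled list by signal.

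Genes and TSSs came from Ensembl release 115 on 6 chromosome arms, and sequences from the RefSeq Release 6 genome. For each gene the highest-signal summit within 500 bp of any TSS was taken from each list, and its distance measured to the nearest TSS. Motifs were searched within 50 bases of the summit. Python 3.11.15 was used with NumPy 2.4.6, pandas 2.3.3 and matplotlib 3.10.9, and the counting was tested on simulated data.

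Every gene of the symbol rule is named. Ranks in each replicate are given for all genes with a thresholded peak, and pooled ranks for those without one. Complex membership, class and partner lists were set by hand, and GatA was matched by a synonym. The genes and lists were chosen with earlier results of these data known. No test was planned, since there is 1 group and genes are not replicates. Spread is the SD over 4 replicates. Other windows, thresholds, lists, TSS choices and left-out replicates were tried. Overlap of peaks means at least 1 bp. The genes of tRNA ligation and modification in the partner list are counted in its total and not reported singly here.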

Additional observations from a re-analysis of the deposited data

Results flagged for a closer look

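Of 41 sets of 4 replicate ranks, summit positions or counts of genes with a peak, 4 had 1 replicate far from the other 3, by Dixon's criterion. Chance does this for about 1 in 20 sets. AlaRS had rank 11796 in replicate 3, beside 5053, 4640 and 4475 in replicates 1, 2 and 4. LeuRS had rank 11196 in replicate 2, beside 5916, 6157 and 6720 in replicates 1, 3 and 4. ProRS-m had rank 8072 in replicate 4, beside 2858, 3007 and 2878 in replicates 1 to 3. The summit of TyrRS, which had no thresholded peak, lay at -249 bp in replicate 4, beside -186, -189 and -183 bp in replicates 1 to 3. The replicate that stood apart was a different one for each of the 3 ranks.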

How the results depend on the processing

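Of 32 alternative values of the counts, 21 stayed within 1.5 times the reported count and 11 moved further. Cytoplasmic genes with a peak, 13 of 18 as reported, fell to 8 where every equally long replicate list had to overlap the peak, a rule under which 22.2% of all protein-coding genes had one, against 31.4% as reported. They numbered 8 to 10 where 1 replicate was left out and the other 3 lists each had to hold a summit (23.3 to 23.9% of all protein-coding genes). Mitochondrial genes, 4 of 15 as reported, were 1 under the first of these rules and 1 to 2 under the second, and 2 in replicate 4 alone. They were 1 among the 3921 highest-signal thresholded peaks, and 1 of the 8 genes with no other protein-coding TSS within 1000 bp. That last restriction left no cytoplasmic gene, so it gave no value. In every alternative that gave a value, the cytoplasmic share was above that of all protein-coding genes. The mitochondrial share was above it with a window of 200 bp (26.7% against 24.0%) and in replicate 2 (33.3% against 30.5%). Leaving out 1 replicate moved the median replicate rank by over 1.5 times for 3 genes. It became 3681, against 6208 over 4 replicates, at GlyRS (without replicate 2 or 4). It became 856, against 1431, at AspRS (without 2 or 4), and 4299, against 6933, at CysRS-m (without 3 or 4). With 18 and 15 genes, a single gene moves a share by several percentage points, and depth is unknown.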
